A study of Mus musculus with 6 samples.

Results

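The genes described here carry retinoids through their cellular route: Stra6 for uptake, Lrat for storage, Crabp1 and Crabp2 for binding, Aldh1a1 and Aldh1a2 for synthesis of retinoic acid, Dhrs3 for the return of retinal to retinol, and Cyp26a1 and Cyp26b1 for breakdown. They are 9 of the 20007 gene identifiers in the deposited files, taken by name through their Entrez Gene identifiers; no value entered that rule, but the list was drawn up with earlier results of these data known. RNA-seq was run on 3 groups of mouse cells, all from KM mice, with 2 libraries each. MEFs were embryonic fibroblasts labelled as from embryos of 13.5 days post coitum, while the growth protocol also allows embryos a day younger. CiSCs were made from passaged MEFs of the same labelled age with small molecule compounds that the labels do not name. MSCs were cultured Sertoli cells, which nurse the germ cells in the tubules of the testis, taken at postnatal day 60. The series asked how closely CiSCs resemble Sertoli cells in gene expression. No group is described as passaged MEFs without compounds, so that passage and compounds cannot be told apart. Whether a group's pair of libraries stems from different cultures or animals is not stated, and p-values therefore measure the spread between these libraries only.

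Vitamin A reaches cells mainly as retinol bound to a plasma carrier. STRA6 lets retinol across the plasma membrane, and LRAT esterifies it, which traps it as a store. Retinol is oxidised reversibly to retinal and then irreversibly to retinoic acid by the ALDH1A enzymes, and the CYP26 enzymes hydroxylate retinoic acid for clearance. Retinoic acid acts through nuclear receptors on target genes, and STRA6, LRAT, DHRS3 and CYP26 genes are known as targets that it induces. In the testis, Sertoli cells supply retinoids to germ cells, in which retinoic acid starts differentiation and meiosis. In the fetal testis, CYP26B1 is known for keeping retinoic acid from germ cells.

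Library totals ranged from 19294671 to 20418587 expected counts, so that 1 read was worth 0.0468 to 0.0543 CPM (counts scaled to a common library size, corrected for composition). The 10 leukocyte markers summed to 11590 and 18723 CPM in the MEF libraries, to 33.9 to 49.4 CPM in CiSCs and to 1287 to 1366 CPM in MSCs. The 8 fibroblast markers summed to 19116 CPM or more in every library. Of the 10 Sertoli cell markers, Gata4 was at 240 and 265 CPM in MSCs and at 0.0954 and 0.0936 CPM in CiSCs, and Dmrt1 had 0 reads in MEFs. Under 1 CPM on average were 6 of these markers in MEFs, 5 in CiSCs and 1 in MSCs. Clu stood at 4734 and 4020 CPM in CiSCs and at 4852 and 7530 CPM in MSCs. Of the 9 tested Sertoli cell markers, 8 were called lower in CiSCs than in MSCs, beside 25.1% of all tested genes. Gata4, Dmrt1, Amh and Aard passed the filter on low counts only through MSCs, so this count is no separate support for a difference. Between the libraries of a group, 1416 of 15272 tested genes lay over 2-fold apart in MEFs, 477 in CiSCs and 415 in MSCs. These are cultures measured in bulk, in which fewer cells of a type and less RNA per cell cannot be told apart.

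In CiSCs the uptake receptor gene Stra6, the storage gene Lrat and the breakdown gene Cyp26b1 were higher than in both other groups, while Cyp26a1, Aldh1a1 and Aldh1a2 each had at most 0.982 CPM. In MSCs Aldh1a1 and Aldh1a2 were high, and Stra6, Lrat and Cyp26b1 were far lower than in CiSCs. MEFs differed from both in a high level of the binding protein gene Crabp1. Of the 9 genes, 8 passed the filter on low counts and were tested, and Cyp26a1 was not. Stra6 and Lrat lay under its minimum in MEFs, Crabp1 in MSCs, and Aldh1a2 in MEFs and CiSCs. These 4 genes passed it only through the groups in which they were high, so their presence among the tested genes already required a difference. The ranks, calls and adjusted p-values of these 4 genes are therefore no separate support for it.

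**Figure D1:**
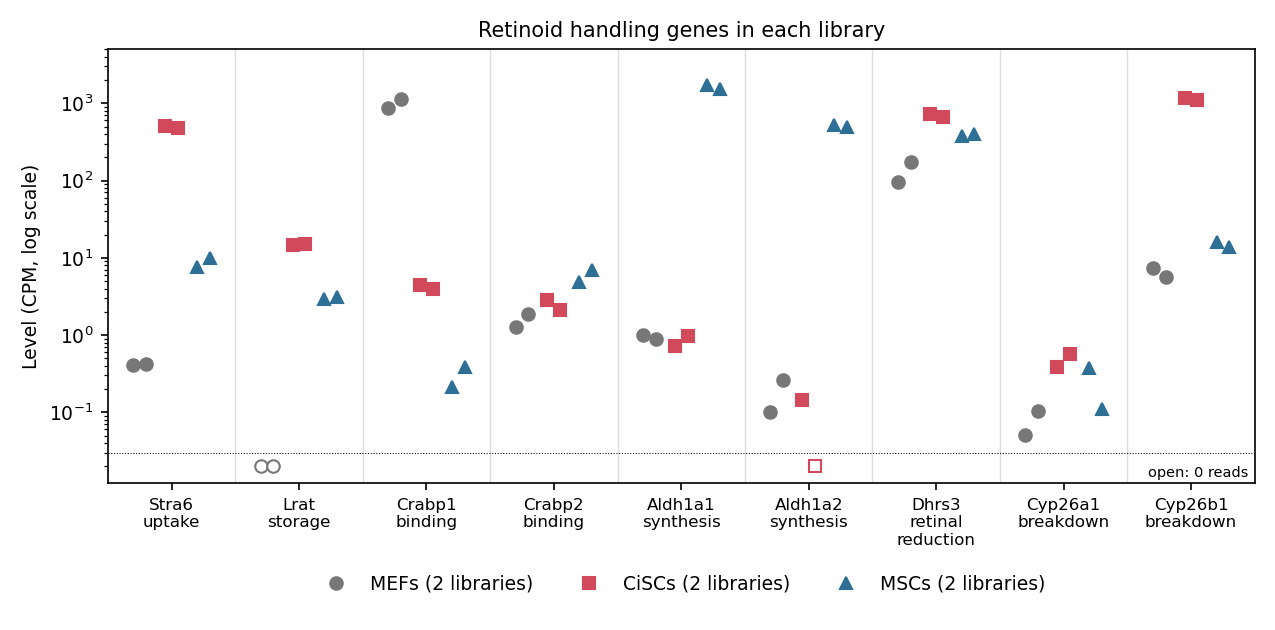
Level of each retinoid handling gene (CPM, log scale) in the 2 libraries of MEFs, CiSCs and MSCs; open symbols below the dotted line mark libraries with 0 reads. Stra6, Lrat and Cyp26b1 are highest in CiSCs, Aldh1a1 and Aldh1a2 in MSCs, and Crabp1 in MEFs.

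Against MEFs, 4 of the 8 tested genes were higher in CiSCs (Stra6, Lrat, Dhrs3 and Cyp26b1), 1 was lower (Crabp1) and 3 did not pass the test. Over all tested genes, 19.6% were called higher and 21.3% lower in that comparison (edgeR quasi-likelihood test, Benjamini-Hochberg adjusted p under 0.05). Against MEFs, 7 of the 8 were higher in MSCs and 1 was lower, where 22.5% of all tested genes were called higher and 20.0% lower. Between CiSCs and MSCs, 5 were higher in CiSCs and 3 lower, where 17.7% of all tested genes were called higher and 25.1% lower. The median log2 fold change of the 8 genes was 1.52, 3.15 and 1.56 in these comparisons in turn, and over all tested genes it was 0.00, 0.01 and -0.03. These counts and medians include the 4 genes that passed the filter only through groups in which they were high. They are no separate support for a difference. Scaling by library totals alone moved the medians over all genes to 0.11, -0.10 and 0.21 and turned the split between CiSCs and MSCs into 4241 higher and 3211 lower genes, against 2697 and 3837; the calls of the 8 genes did not change. Both comparisons with MEFs use the same MEF libraries.

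**Figure D2:**
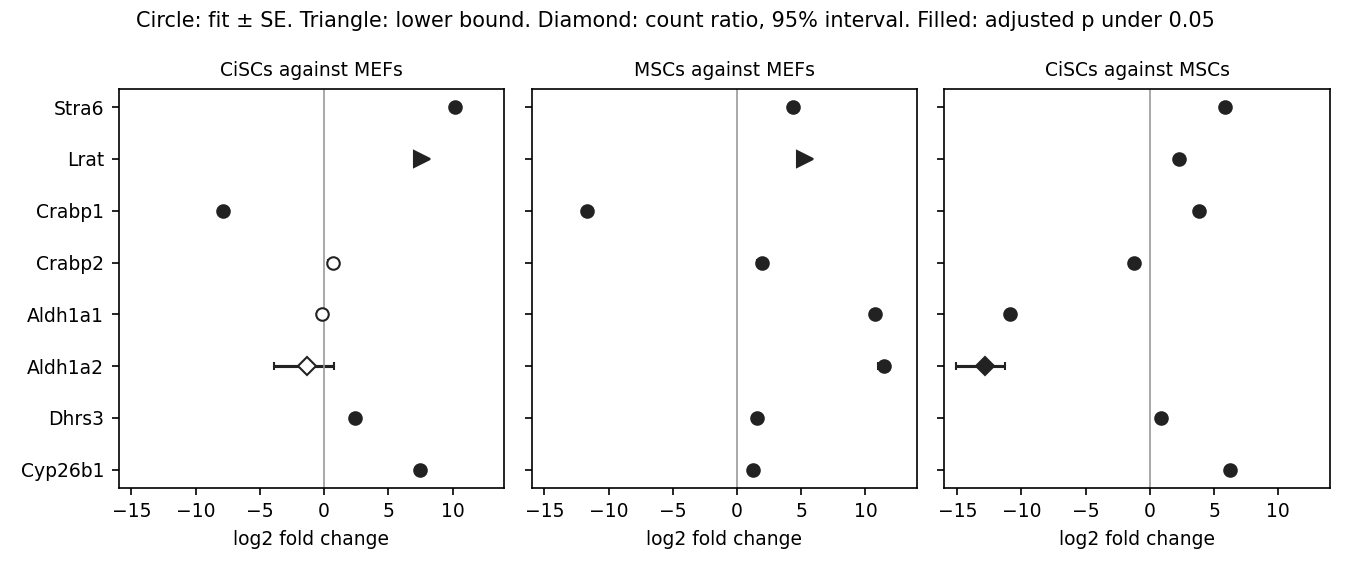
Log2 fold change of the 8 tested genes in the 3 comparisons; circles are fitted values ± SE, triangles the lower bound for Lrat against MEFs with 0 reads, and diamonds the ratio of summed reads with its 95% counting interval for Aldh1a2, which had 3 reads in CiSCs. Filled symbols passed the test; the 3 open symbols, Crabp2, Aldh1a1 and Aldh1a2, are all in CiSCs against MEFs.

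Stra6 (Entrez Gene 20897), the retinol uptake receptor, had 8 reads in each MEF library, which is 0.405 and 0.416 CPM. It had 507 and 473 CPM in CiSCs and 7.50 and 9.83 CPM in MSCs. The 3 groups did not overlap, and CiSCs stood far above both others. The log2 fold change was 10.20 ± 0.25 (SE) in CiSCs against MEFs (adjusted p = 1.49e-05), with rank 12 from the top of 15272 tested genes. In CiSCs against MSCs it was 5.82 ± 0.19 (adjusted p = 8.92e-06), a 56.6-fold difference. MSCs in turn exceeded MEFs by 4.38 ± 0.25 (adjusted p = 4.64e-05), so the order was CiSCs, MSCs, MEFs.

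Lrat (Entrez Gene 79235), which makes the storage ester, kept the same order. It had 0 reads in both MEF libraries, where 3 reads over the group would be 0.0769 CPM. CiSCs had 14.7 and 15.0 CPM (308 and 320 reads), and MSCs had 2.92 and 3.15 CPM (55 and 58 reads). Against the floor of 3 reads over the group, Lrat was at least 193-fold higher in CiSCs than in MEFs (adjusted p = 4.50e-05) and at least 39.5-fold higher in MSCs (adjusted p = 1.72e-04). CiSCs exceeded MSCs by a log2 fold change of 2.29 ± 0.21 (adjusted p = 5.73e-04). Intervals and floors cover counting error only.

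The cellular retinoic acid binding protein genes took opposite courses. Crabp1 (Entrez Gene 12903), whose product holds retinoic acid in the cytoplasm, had 859 and 1129 CPM in MEFs, 4.44 and 3.98 CPM in CiSCs and 0.213 and 0.380 CPM in MSCs. The higher value belonged to the second MEF library, which also had the larger leukocyte marker sum. Most of that sum was Lyz2, with 7161 and 12498 CPM in the MEF libraries. Ptprc, Adgre1 and Mrc1 were lower in the second MEF library, and the other leukocyte markers were higher. The part of those cells in the Crabp1 level was not tested. Crabp1 was lower in CiSCs than in MEFs by a log2 fold change of -7.88 ± 0.25 (adjusted p = 1.49e-05), which was -8.09 without the first MEF library and -7.67 without the second. In MSCs against MEFs it was -11.68 ± 0.32 (adjusted p = 1.03e-05), rank 4 from the bottom. The MSC level rested on 4 and 7 reads, and by summed reads CiSCs had 14.2 times as much (95% counting interval 7.76 to 29.0; adjusted p = 2.10e-04).

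Crabp2 (Entrez Gene 12904), whose product passes retinoic acid to its nuclear receptor, was low in every library. It had 1.26 and 1.87 CPM in MEFs, 2.86 and 2.11 CPM in CiSCs and 4.84 and 7.01 CPM in MSCs. MSCs lay above MEFs by a log2 fold change of 1.91 ± 0.34 (adjusted p = 0.00524). The difference of 0.66 ± 0.35 between CiSCs and MEFs did not pass (adjusted p = 0.175), although the libraries did not overlap. CiSCs were lower than MSCs by -1.25 ± 0.33 (adjusted p = 0.0221), a call that was lost without the first CiSC library (-1.48, adjusted p = 0.0667), without the second (-1.05, adjusted p = 0.142) and without the second MSC library (-0.96, adjusted p = 0.161).

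Per kilobase of transcript, which allows a comparison between genes, the level of Crabp1 was 1239 and that of Crabp2 1.68 CPM per kb in MEFs. In CiSCs the pair stood at 5.25 and 2.67 CPM per kb, and in MSCs at 0.370 and 6.36 CPM per kb. The order of the pair was therefore the same in MEFs and CiSCs and the opposite in MSCs, in each of the 2 libraries. Transcript lengths were those of the longest annotated transcript paired with a curated RefSeq mRNA, 802 bases for Crabp1 and 931 bases for Crabp2.

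**Figure D3:**
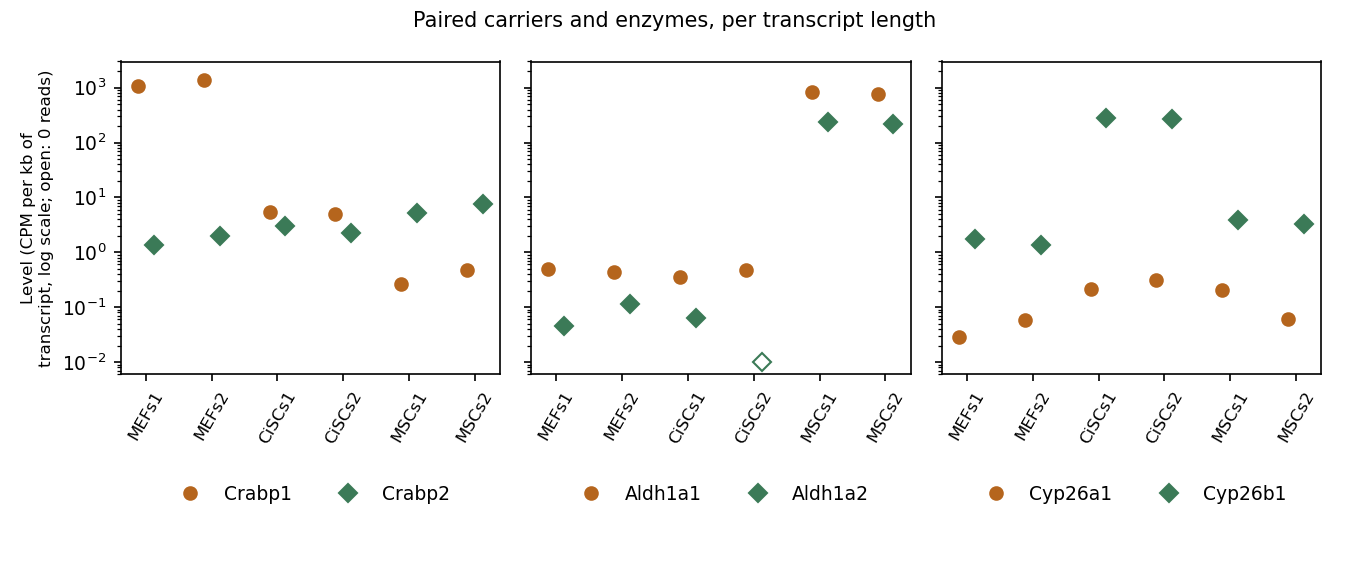
Level per kilobase of transcript (CPM per kb, log scale) in each of the 6 libraries for the binding protein pair, the retinal dehydrogenase pair and the CYP26 pair; the open symbol marks 0 reads. Crabp1 and Crabp2 swap order in MSCs, both Aldh1a genes are high in MSCs and at or below 0.493 CPM per kb elsewhere, and Cyp26b1 lies above Cyp26a1 in every library.

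The retinal dehydrogenases, which make retinoic acid, were high in MSCs alone among the 3 groups. Aldh1a1 (Entrez Gene 11668) had 1725 and 1545 CPM in MSCs, 1.01 and 0.884 CPM in MEFs and 0.716 and 0.982 CPM in CiSCs. MSCs stood apart, whereas the libraries of MEFs and CiSCs overlapped. The log2 fold change was 10.74 ± 0.24 in MSCs against MEFs (adjusted p = 8.56e-06) and -10.90 ± 0.24 in CiSCs against MSCs (adjusted p = 7.64e-06). Between CiSCs and MEFs it was -0.16 ± 0.26 (adjusted p = 0.723), with 36 and 37 reads in all, and without the first CiSC library it was 0.034.

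Aldh1a2 (Entrez Gene 19378), the enzyme that makes most embryonic retinoic acid, had 525 and 487 CPM in MSCs. MEFs had 2 and 5 reads (0.101 and 0.260 CPM), and CiSCs had 3 and 0 reads (0.143 and 0 CPM). By summed reads MSCs exceeded CiSCs by a ratio of 7145 (95% counting interval 2444 to 34648; adjusted p = 1.16e-05, edgeR). Without the first CiSC library, CiSCs had no read of this gene. MSCs exceeded MEFs by a log2 fold change of 11.41 ± 0.42 (adjusted p = 1.39e-05), which became 12.20 without the second MEF library. MEFs and CiSCs could not be told apart at this depth, with a ratio of MEFs to CiSCs of 2.53 (95% counting interval 0.578 to 15.2; adjusted p = 0.336). Among the tested genes Aldh1a2 had rank 10 and Aldh1a1 rank 35 from the bottom in CiSCs against MSCs. The Aldh1a2 rank rests on 3 and 0 reads in CiSCs. Its fitted log2 fold change was -12.68, and -16.25 to -11.72 over the alternatives. Per kilobase, the MSC level was 796 CPM per kb for Aldh1a1 and 224 CPM per kb for Aldh1a2.

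Marker sums of steroid-making Leydig cells and of Sertoli cells were highest in MSCs, as were both enzymes. The sums of all other listed cell types except leukocytes were also highest there. For the 8 fibroblast markers they were 38315 to 41114 CPM in MSCs, 19116 to 20203 CPM in MEFs and 26733 to 27105 CPM in CiSCs. The Sertoli cell markers summed to 6021 to 8907 CPM in MSCs, 4120 to 4850 CPM in CiSCs and 93.6 to 104 CPM in MEFs. Most of the sum was Clu in MSCs (4852 and 7530 CPM) and in CiSCs (4734 and 4020 CPM). All 9 tested Sertoli cell markers were higher in MSCs than in MEFs, beside 22.5% of all tested genes. As Gata4, Dmrt1, Amh and Aard passed the filter only through MSCs, that count is no separate support for a difference. The 8 Leydig cell markers summed to 1554 and 1579 CPM in MSCs, against 11.2 to 13.0 CPM in the other libraries. In MSCs, Cyp11a1, which starts steroid synthesis, had 773 and 794 CPM and Insl3, a Leydig cell hormone gene, 60.3 and 64.6 CPM. Of the other defining markers, Hsd17b3 had 0 reads, Cyp17a1 0 and 1 reads, and Lhcgr, the luteinising hormone receptor gene, 1 and 2 reads in MSCs. The sums in MSCs were 3687 to 3870 CPM for 6 myoid cell markers (1516 to 3563 CPM elsewhere), 95.3 to 99.96 CPM for 6 endothelial markers (11.0 to 31.1 CPM) and 26.9 to 33.5 CPM for 7 germ cell markers (2.1 to 4.0 CPM). The part of such cells in the Aldh1a levels was not tested.

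Dhrs3 (Entrez Gene 20148), which reduces retinal to retinol and so withdraws it from retinoic acid synthesis, was expressed in all 3 groups. It had 96.8 and 171 CPM in MEFs, 733 and 667 CPM in CiSCs and 380 and 403 CPM in MSCs. The groups did not overlap, and the MEF libraries differed most between themselves. CiSCs exceeded MEFs by a log2 fold change of 2.38 ± 0.27 (adjusted p = 8.45e-04), a 5.22-fold difference, and MSCs exceeded MEFs by 1.55 ± 0.27 (adjusted p = 0.00442). The fold change in CiSCs was 2.00 without the first MEF library and 2.85 without the second. CiSCs exceeded MSCs by 0.84 ± 0.26 (adjusted p = 0.0410), and this call was lost when any 1 of the 4 libraries compared was left out, with adjusted p from 0.116 to 0.198.

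Retinoic acid breakdown was represented by Cyp26b1 (Entrez Gene 232174). It had 7.33 and 5.56 CPM in MEFs, 1153 and 1116 CPM in CiSCs and 15.9 and 13.9 CPM in MSCs. CiSCs stood far above the other groups, which did not overlap either. The log2 fold change was 7.46 ± 0.22 in CiSCs against MEFs (adjusted p = 1.49e-05), 6.25 ± 0.20 in CiSCs against MSCs (adjusted p = 8.92e-06) and 1.20 ± 0.18 in MSCs against MEFs (adjusted p = 0.00248). It had rank 46 from the top in the first of these comparisons and rank 109 in CiSCs against MSCs.

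Cyp26a1 (Entrez Gene 13082), the family member known as the most responsive to retinoic acid in many cells, was at the limit of detection. It had 1 and 2 reads in MEFs, 8 and 12 in CiSCs and 7 and 2 in MSCs. That is 0.0506 and 0.104 CPM, 0.382 and 0.561 CPM, and 0.372 and 0.109 CPM. By summed reads CiSCs exceeded MEFs 6.14 times, with a 95% counting interval of 1.82 to 32.3 that leaves out the spread between libraries. The ratio of MSCs to MEFs was 3.14 (0.785 to 18.1), and that of CiSCs to MSCs was 1.95 (0.850 to 4.87). Per kilobase, CiSCs had 272 CPM per kb of Cyp26b1 and 0.263 CPM per kb of Cyp26a1.

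Cyp26a1 and the receptor gene Rarb are known for response elements of the retinoic acid receptor near their starts. Stretches before the starts of both are shown, with Cyp26b1 beside them because it was the CYP26 gene that was high in CiSCs, from RefSeq (GRCm38.p6, a later build than that of the files), 5′ to 3′ on the gene's strand. Capitals mark half-sites that form a direct repeat with 5 bases between them.
Cyp26a1 chr19:37697746-37697807 (+): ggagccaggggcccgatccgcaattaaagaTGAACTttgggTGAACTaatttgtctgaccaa
Rarb chr14:16575483-16575559 (-): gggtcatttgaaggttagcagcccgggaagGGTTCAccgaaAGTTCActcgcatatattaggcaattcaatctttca
Cyp26b1 chr6:84593811-84594060 (-): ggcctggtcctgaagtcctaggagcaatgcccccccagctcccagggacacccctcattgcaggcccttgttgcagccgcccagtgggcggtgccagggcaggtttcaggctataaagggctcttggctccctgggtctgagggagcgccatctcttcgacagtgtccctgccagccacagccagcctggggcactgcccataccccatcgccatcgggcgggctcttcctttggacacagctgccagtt
In Cyp26a1 the repeat lies on the opposite strand, from base -32 to -16 of the start, and in Rarb it lies on the gene's strand from -53 to -37. The Cyp26b1 stretch holds no such repeat. The search took the half-site AGGTCA, its variant AGTTCA and the further variants GGGTCA as well as GGTTCA on both strands, repeated with 1, 2 or 5 bases between them, in windows of 250 bases before to 50 after each start. Of 14 windows of 8 of the 9 genes, 1 held a repeat, and 3 held at least 1 half-site. Among 32851 windows of 27025 genes, 0.0974% held the repeat with 5 bases, 0.588% any of the repeats and 43.7% a half-site. A match describes these letters only, and no match says only that they are not in this window.

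The receptor and response genes gave the other side of the pathway, from a list of 16 that holds none of the 9 genes. Of these, 13 were tested. In CiSCs against MEFs 7 were higher (Rara, Rarb, Rarg, Tgm2, Nrip1, Meis1 and Meis2) and 1 was lower (Rarres1). The median log2 fold change was 0.62, and the shares of all tested genes called higher and lower were 19.6% and 21.3%. In MSCs against MEFs 7 were higher and 0 lower (median 1.38, shares 22.5% and 20.0%). In CiSCs against MSCs 3 were higher and 3 lower (median 0.24, shares 17.7% and 25.1%). The last counts lay near their shares. Rarb and Stra8 lay under the filter's minimum in MEFs and passed it only through groups in which they were high. Their calls are therefore no separate support for a difference.

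Rarb, which encodes a retinoic acid receptor, had 0.101 and 0.260 CPM in MEFs, 104 CPM in each CiSC library and 12.6 and 12.5 CPM in MSCs. Its order of groups was that of Stra6, Lrat and Cyp26b1. CiSCs exceeded MEFs by a log2 fold change of 9.13 ± 0.27 (adjusted p = 1.49e-05), which was 9.92 without the second MEF library, and exceeded MSCs by 3.05 ± 0.17 (adjusted p = 4.11e-05). Meis2, a homeobox gene, had 22.5 and 21.5 CPM in MEFs, 248 and 223 CPM in CiSCs and 18.2 and 17.3 CPM in MSCs. It was higher in CiSCs than in MEFs by 3.42 ± 0.14 (adjusted p = 1.71e-05). Tgm2, which encodes tissue transglutaminase, had 97.6 and 117 CPM in MEFs, 586 and 500 CPM in CiSCs and 714 and 686 CPM in MSCs. Both cell groups exceeded MEFs in Tgm2, by 2.34 ± 0.16 and 2.71 ± 0.16 (adjusted p = 9.94e-05 and 6.06e-05).

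Beyond the 9 genes, 38 further genes of retinoid handling were listed, of which 37 were in the files and 29 were tested. In CiSCs against MEFs 3 were higher, Rdh10 and Aldh1a3 among them, 9 were lower and 17 did not pass. The median log2 fold change was -0.14, and the shares of all tested genes called higher and lower were 19.6% and 21.3%. In MSCs against MEFs 10 were higher, 3 lower and 16 did not pass (median 0.36, shares 22.5% and 20.0%). The lower count there was 8 without the first MEF library and 1 without the second MSC library. In CiSCs against MSCs 2 were higher, 12 lower and 15 did not pass (median -0.53, shares 17.7% and 25.1%). The higher count of that comparison was 1 when any of its 4 libraries was left out. Rbp4, Adh4 and Bco1 passed the filter on low counts only through MSCs, and Aldh1a3 lay under its minimum in MEFs. Their part in these counts is no separate support for a difference.

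Among carriers, Fabp5, which can carry retinoic acid to another nuclear receptor, was lower in CiSCs (40.6 and 35.8 CPM) than in MEFs (100.1 and 170 CPM) and MSCs (121 and 101 CPM). Its log2 fold change was -1.82 ± 0.26 (adjusted p = 0.00230) and -1.54 ± 0.26 (adjusted p = 0.00390).

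Scarb1, Cd36 and Lpl were each highest in MSCs. Scarb1, a lipoprotein receptor, had 37.6 and 32.1 CPM in MEFs, 23.8 and 27.3 CPM in CiSCs and 93.1 and 103 CPM in MSCs. Cd36, a scavenger receptor, had 5.87 and 5.09 CPM in MEFs, 0.477 and 0.281 CPM in CiSCs and 82.8 and 71.1 CPM in MSCs. Lpl, a lipase that also splits retinyl esters, had 55.7 and 45.5 CPM in MEFs, 12.3 and 13.1 CPM in CiSCs and 506 and 599 CPM in MSCs. CiSCs were lower than MSCs in all 3 genes, by log2 fold changes of -1.94 ± 0.16, -7.65 ± 0.26 and -5.45 ± 0.19 (adjusted p = 1.52e-04, 9.84e-06 and 1.05e-05). Of the 5 tested genes for delivery and uptake in this list, all were lower in CiSCs than in MSCs, while Stra6 was higher. The share of all tested genes called lower in that comparison was 25.1%. Among the 5, Rbp4 and Lrp2 were low even in MSCs, with means of 2.85 and 2.93 CPM. Rbp4 passed the filter only through MSCs, so its call is no separate support for a difference. Stra6l, a second receptor for the plasma carrier, had 4.05 and 6.03 CPM in MEFs, 0.286 and 0.702 CPM in CiSCs and 1.86 and 1.63 CPM in MSCs.

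Of the 16 tested genes for the step between retinol and retinal, 1 was higher in CiSCs than in MEFs, 4 were lower and 11 did not pass. The shares of all tested genes called higher and lower there were 19.6% and 21.3%. The higher one of the 16 was Rdh10, the main retinol dehydrogenase of the embryo. Rdh10 had 9.51 and 5.77 CPM in MEFs, 13.5 and 14.9 CPM in CiSCs and 10.4 and 12.5 CPM in MSCs. Its log2 fold change was 0.90 ± 0.26 (adjusted p = 0.0355). The call was lost in 6 of 14 alternatives, with values of 0.79 to 0.95, among them without either CiSC library and without either MSC library. Over all 14 alternatives the value ranged from 0.58 to 1.28. Adh1, an alcohol dehydrogenase that accepts retinol, had 12.3 and 14.7 CPM in MEFs, 5.82 and 5.33 CPM in CiSCs and 136 and 134 CPM in MSCs. It was lower in CiSCs than in MSCs by -4.59 ± 0.17 (adjusted p = 1.16e-05). Dhrs9 had 25.8 and 8.68 CPM in MEFs, 0.859 and 0.374 CPM in CiSCs and 2.34 and 1.47 CPM in MSCs. Its log2 fold change in CiSCs against MEFs was -4.80 ± 0.68 (adjusted p = 0.00215), which was -3.83 without the first MEF library and -5.52 without the first CiSC library; in MSCs against MEFs it was -3.18 ± 0.61 (adjusted p = 0.00670), which was -2.22 without the first MEF library and lost its call without the second MSC library (-2.88). Rdh14, another retinol dehydrogenase gene, had 12.4 and 13.3 CPM in MEFs, 13.6 and 10.8 CPM in CiSCs and 21.0 and 18.9 CPM in MSCs. It was lower in CiSCs than in MSCs by -0.70 ± 0.18 (adjusted p = 0.0185), a call lost without the second CiSC library, without either MSC library and by library totals only. Dgat1, which can esterify retinol, had 17.8 and 20.1 CPM in MEFs, 23.2 and 22.5 CPM in CiSCs and 14.8 and 14.9 CPM in MSCs. CiSCs exceeded MSCs in Dgat1 by 0.62 ± 0.14 (adjusted p = 0.0127), a call lost without any 1 of the 4 libraries.

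**Figure D4:**
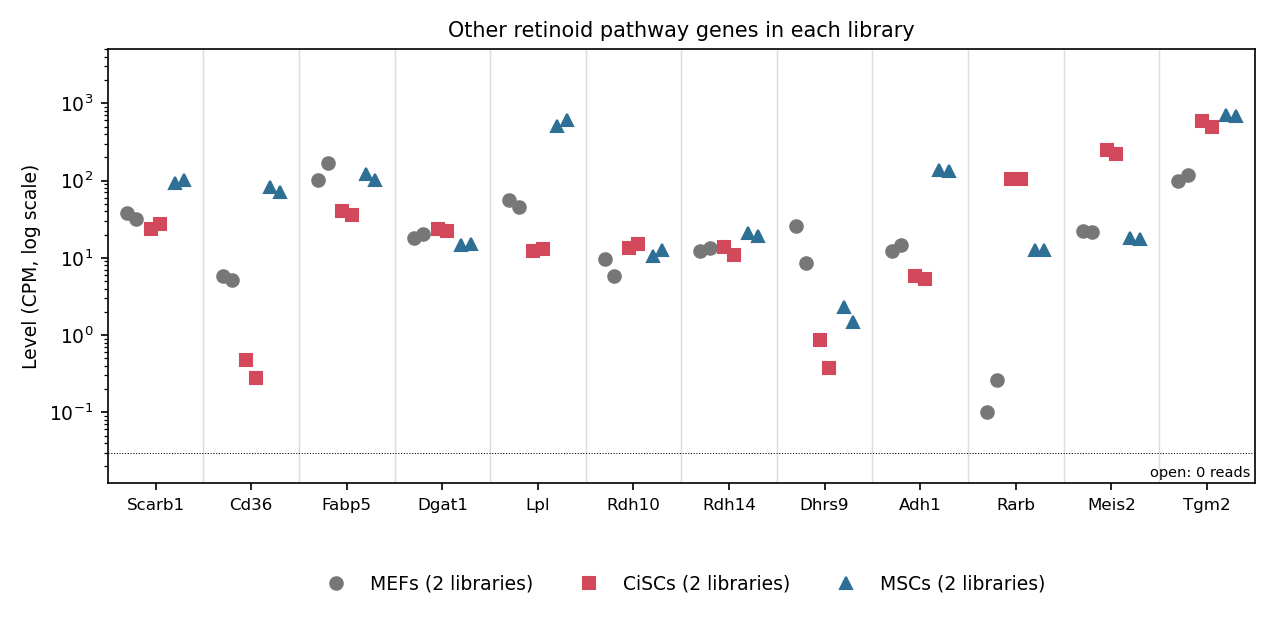
Level (CPM, log scale) of other named genes of retinoid handling and response in the 2 libraries of MEFs, CiSCs and MSCs. Rarb and Meis2 are highest in CiSCs, and Scarb1, Cd36, Lpl and Adh1 are highest in MSCs.

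The remaining enzymes of the last steps were low. Aldh1a3, the third retinal dehydrogenase, had 1 read in each MEF library, 0.763 and 1.03 CPM in CiSCs and 6.27 and 7.66 CPM in MSCs. Its order was MSCs, CiSCs, MEFs. Cyp26c1, the remaining CYP26 gene, had at most 2 reads in any library and was not tested.

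For each of the 9 genes whose mean reached 10 CPM in some group, the 3 genes with the nearest values were found by the root mean square difference of log2 CPM over the 6 libraries, among 14525 genes. Stra6 lay nearest to Adgrf5 (0.76), Spon2 (1.32) and Rarb (1.45). Lrat lay nearest to Gabra3 (0.76), Usp43 (0.76) and Ano4 (0.80). Cyp26b1 lay nearest to Cd38 (1.24), Adamts14 (1.26) and Scara3 (1.31), and Crabp1 to Lrrc15 (0.91), Il1rl1 (1.42) and Dkk2 (1.56). Aldh1a1 lay nearest to Serpina3n (1.26), Hspb7 (1.35) and Col4a4 (1.49). Aldh1a2 lay nearest to Cyp11a1 (0.50), Akr1cl (0.55) and Gata4 (0.75), of which Cyp11a1 is in the Leydig cell list and Gata4 in the Sertoli cell list. These 3 genes had means of at most 0.205 CPM in MEFs and in CiSCs. Dhrs3 lay nearest to Egr1 (0.53), Tmem176b (0.54) and Cyp1b1 (0.54).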

How the data were processed

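RNA-seq libraries on a BGISEQ-500 were deposited as 1 table per library. Per the values in them, the authors deposited expected counts per gene (42.0 to 43.8% were not whole, tolerance 1e-09). HISAT and the mouse build mm9 are named per the submitters' processing notes; the counting tool, its use of strand and the annotation are not given in the sources used here, so reads of a gene and of an antisense partner cannot be told apart. Symbols came from RefSeq (GRCm38.p6) by Entrez identifier (18891 of 20007 matched); Rdh7 and Prm2 were not analysed here, and 1 gene that the naming rule takes is not reported here. Expected counts were rounded and tested with edgeR 4.0.16 in R 4.3.3 (quasi-likelihood F test, two-sided, all 6 libraries, 1 mean per group, 3 residual degrees of freedom, TMM scaling, filterByExpr, Benjamini-Hochberg adjusted p under 0.05 over 15272 genes). CPM used TMM-scaled library sizes; log2 CPM had a prior count of 2. Levels per kb used GENCODE M21 transcript lengths, which stand in for the unknown annotation. Counting intervals are exact, at 95%, and the floor was 3 reads over a group. Alternatives were leaving out each library, a replicate block, fits of the 2 groups compared, DESeq2 1.42.0, other scaling and other filters. The scripts were tested on simulated data with known changes. Of 180 genes called in CiSCs against MEFs, 186 in MSCs against MEFs and 176 in CiSCs against MSCs, 14, 15 and 12 were false. Of 50 genes changed 2-fold in each comparison, 23, 23 and 20 were recovered. The 9 genes and the lists were chosen with earlier results of these data known. Named beside them were listed handling genes that passed the test in a comparison and whose mean reached 10 CPM in some group, and the 3 response genes with the smallest adjusted p in CiSCs against MEFs; Aldh1a3, Stra6l, Cyp26c1 and the genes listed by name in counts were named after their values were seen.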

Additional observations from a re-analysis of the deposited data

How the results depend on the processing

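Of 24 comparisons of the tested genes, 22 kept their side of the threshold in all 14 alternatives or those in which the gene could be fitted; Crabp2 and Dhrs3 in CiSCs against MSCs lost theirs in 3 and 4 fits without 1 library, and Aldh1a1 in CiSCs against MEFs, which did not pass, ranged from -0.43 to 0.034 over fits without 1 library. Equal replicate numbers were not shown to pair the libraries (correlations of deviations -0.21 for MEFs with CiSCs, 0.14 for MEFs with MSCs and -0.13 for CiSCs with MSCs). With the replicate block, 5468, 5672 and 5814 genes were called in the comparisons of CiSCs with MEFs, of MSCs with MEFs and of CiSCs with MSCs, against 6250, 6497 and 6534 without it; with the numbers crossed, an alternative chosen after seeing the data, 6829, 7158 and 6998. The counts of the 9 genes called did not change under either block. Leaving out 1 library gave 3395 to 9487, 3516 to 9745 and 3910 to 9369 genes. For the wider list it gave 1 to 8 lower genes in MSCs against MEFs, where a filter of 5 CPM in 2 libraries gave 1, and 1 to 2 higher genes in CiSCs against MSCs. The 5 CPM filter also removed Crabp2. Among genes that did not pass, the Rdh14 difference between CiSCs and MEFs was -0.07 and ranged from -0.26 without the first to 0.057 without the second CiSC library, with 0.055 by library totals only, and Fabp5 in MSCs against MEFs was -0.28 and ranged from -0.65 without the first, where it passed, to 0.15 without the second MEF library; the cause was not tested. The Rdh14 call in MSCs against MEFs was lost in 6 alternatives. The depth limits Cyp26a1 throughout and Aldh1a2 and Lrat in the groups with 0 to 5 reads.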
